A study of Brassica napus with 6 samples.

Results

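The genes described here are those of photosynthesis, light signalling and carbohydrate metabolism that differed between the silique walls of long-silique and short-silique rapeseed (Brassica napus). They were taken from the authors' table by its functional classification: the classes for photosynthesis, light signalling, tetrapyrrole synthesis, major and minor carbohydrate metabolism, glycolysis, and organic acid transformation. Genes of the early light-induced protein locus AT3G22840 and genes in the first 6 Mb of chromosomes A02 and C02 were left out by the same rule, which removed 2 and 3 genes. This gave 46 of the 3248 genes in the table: 11 of photosynthesis, 9 of light signalling, 0 of tetrapyrrole synthesis, 6 of sucrose breakdown (the major carbohydrate class), 13 of minor carbohydrates, 1 of glycolysis and 6 of organic acid transformation, a class that also holds carbonic anhydrases.

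The study sequenced RNA of the silique wall, the outer tissue of the rapeseed pod, 15 days after flowering. The long pool mixed equal parts from 12 long-silique accessions of an association population, and the short pool did so from 11 short-silique accessions of that population. Each pool had 3 libraries. Both pools are mixtures of lines, so the libraries of a pool share their accessions, and the spread among accessions was not measured. No treatment and no genotype of the accessions is given in the labels, so alleles that differ between the pools are not known. The labels do not tell whether the 3 libraries of a pool stem from different plants. Each p-value therefore refers to the variation among libraries alone, part or all of which may be technical.

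A green silique wall carries out photosynthesis and supplies sugars to the seeds within it. In the chloroplast, antenna proteins that bind chlorophyll pass light energy to the photosystems, and the Calvin cycle uses the products of electron transport to fix CO2. Sucrose reaching a tissue is split by invertases or sucrose synthase, while trehalose-6-phosphate, raffinose sugars and inositol serve in sugar signalling, storage and stress. Phytochromes and the transcription factors downstream of them adjust growth and plastid genes to the light.

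Library totals recovered from the deposited counts and FPKM lay between 22892442 and 30259269 reads, and 3 counts in a library were worth 0.0991 to 0.131 CPM (counts scaled to the library total). The table holds genes the authors called and no others, so each gene below had already been selected for a difference, and genes outside the table were not analysed here. A gene was called here at an edgeR adjusted p of at most 0.05 and a p of at most 0.005, after Benjamini-Hochberg adjustment over 65264 genes. Of the 3248 listed genes, 2574 had enough counts to be tested and 66.6% of these were called, 23.1% higher and 43.5% lower in the long pool. Log2 fold changes are long over short throughout, with their standard error (SE), CPM are given for each library in the order of replicates 1 to 3, and FPKM (counts scaled by the authors to length as well) as means ± SD with n = 3 in each pool. Positions are those of the Darmor reference in the table. RNA was measured in bulk, so fewer cells of a kind and less RNA per cell cannot be told apart.

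In the long pool, 12 of the 46 genes stood higher and 34 lower in the authors' deposited table, so that 26.1% were higher against 34.4% of all listed genes. Of the 44 genes tested here, 31 were called, 9 of them higher and 22 lower in the long pool. That is 70.5% of the tested genes, close to the 66.6% over the whole table, and the median log2 fold change of -1.18 lay near the -1.22 of all tested genes. The CPM of the pools did not overlap for 45 of the 46 genes, 12 with every long library above and 33 with every long library below the short ones, against 95.3% of all listed genes (33.1% above and 62.2% below). With the recovered library totals these genes as a group thus stood near the background of the table. The light signalling genes, the sensors and regulators of light responses, were called lower in 7 of 9 cases and higher in 1. Photosynthesis genes were called lower in 7 and higher in 2 of the 10 tested, and the organic acid class had 3 called higher and 1 lower of 6. Over all tested genes 43.5% were called lower and 23.1% higher, and differences between classes were not tested.

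The number of genes called in each direction depends on the scale to which the libraries are brought. With TMM factors over the listed genes all log2 fold changes moved upwards by a median of 0.78, and with DESeq2 size factors by 0.93. No member changed sign under either scaling, but the called members became 12 higher and 3 lower under each. The calls over all 2574 tested genes turned in the same way, from 594 higher and 1119 lower. They became 916 higher and 330 lower with TMM factors, and 915 higher and 278 lower with DESeq2 size factors. Thus 15 of the 44 tested members were called under each scaling, beside 1246 (TMM factors) and 1193 (DESeq2 size factors) of all tested genes. The 9 members called higher stayed called, and the members called lower that did so were PSAF, the AT4G20130 copy and PHYA. Both scalings centre on genes selected for differing, while the recovered totals do not.

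**Figure D1:**
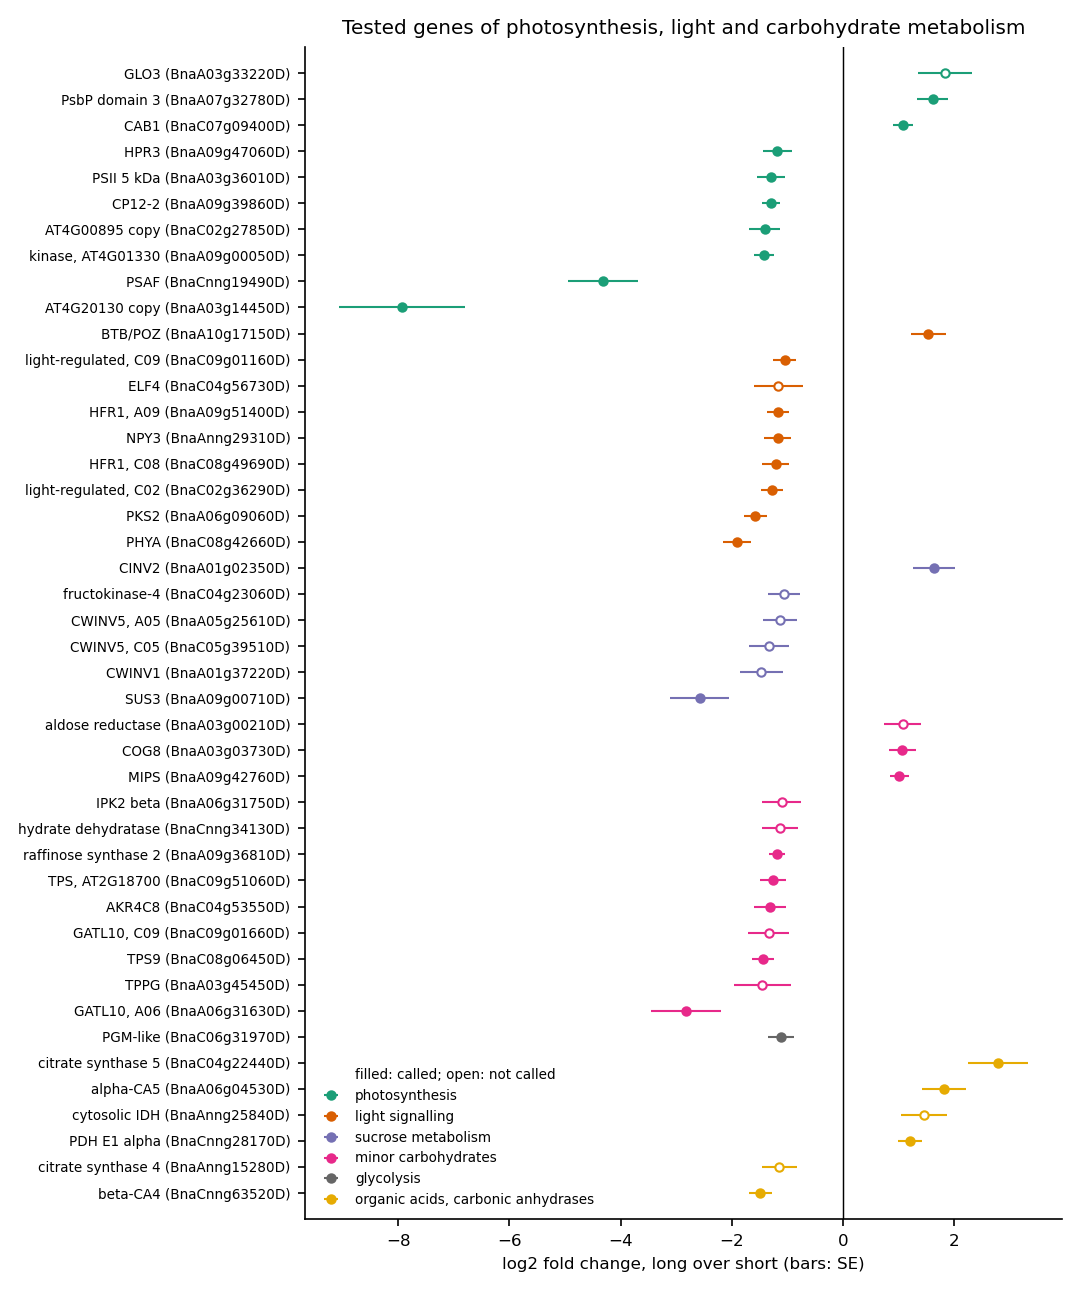
Log2 fold change (long over short, horizontal axis) of the 44 tested genes, by class from top to bottom, with bars for the SE and filled points for called genes. Light signalling holds 1 point to the right of 0 and 8 to the left, and the fitted value of the AT4G20130 copy, whose long libraries hold 0 reads, depends on the fit and is no measured size.

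Among the photosynthesis genes an antenna gene and a relative of PsbP were higher in the long pool, while a Calvin cycle regulator and subunits of both photosystems were lower. The copy of CAB1, which encodes a chlorophyll a-b binding protein of the photosystem II antenna (BnaC07g09400D, C07, 14697798 to 14698601), had 254, 223 and 234 CPM in the long libraries, against 102, 150 and 86.1 CPM in the short libraries. Every long library lay above every short library, and the short libraries varied more than the long ones. The log2 fold change was 1.07 ± 0.18 (SE; edgeR adjusted p = 0.00236). Its mean level per length, 295 ± 19.9 FPKM in the long pool against 140 ± 41.6 FPKM in the short pool, was the highest of the 46 genes in the long pool. Chlorophyll a-b binding proteins form a family of near-identical copies, and only reads with a unique position were counted, so reads shared with relatives are missing from its count and its level is uncertain.

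PsbP domain-containing protein 3, a relative of the PsbP subunit of the water-splitting complex (BnaA07g32780D, A07, 22617006 to 22618626), was the other photosynthesis gene called higher. It had 7.15, 9.29 and 8.74 CPM in the long libraries, against 4.04, 1.88 and 2.36 CPM in the short libraries, without overlap. Its log2 fold change was 1.61 ± 0.27 (SE; edgeR adjusted p = 0.00211), and the call stood whichever library was left out.

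CP12-2 was the photosynthesis gene with the smallest p. CP12 is a small chloroplast protein that binds Calvin cycle enzymes and holds them inactive in the dark (BnaA09g39860D, A09, 28152728 to 28153237). The long libraries held 26.8, 34.8 and 34.2 CPM, against 77.5, 73.8 and 85.1 CPM in the short libraries. Every long library lay far below every short library, and the log2 fold change was -1.30 ± 0.16 (SE; edgeR adjusted p = 0.000141). Per length it stood at 62.6 ± 8.72 FPKM in the long pool against 155 ± 11.2 FPKM in the short pool, so that CP12-2 was the highest of the 46 genes in the short pool, where CAB1 stood at 140 FPKM.

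Subunits of both photosystems were lower in the long pool. The photosystem II 5 kDa protein, a small nuclear-encoded subunit (BnaA03g36010D, A03, 17609081 to 17609643), had 9.75, 18.1 and 9.61 CPM in the long libraries, against 22.6, 35.5 and 33.9 CPM in the short libraries. Replicate 2 of the long pool was nearest to the short libraries, and the pools did not overlap. The difference of -1.29 ± 0.25 on the log2 scale (SE; edgeR adjusted p = 0.00837) was no longer called without long replicate 1 (-1.14, edgeR adjusted p = 0.0833) or without short replicate 3 (-1.21, edgeR adjusted p = 0.0545). A copy of PSAF, subunit III of photosystem I, at which plastocyanin docks (BnaCnng19490D, on an unplaced C scaffold), differed far more. It held 3, 3 and 19 reads in the long libraries, against 197, 232 and 113 reads in the short libraries. Long replicate 3 was the highest of its pool and still far below every short library. The log2 fold change was -4.31 ± 0.63 (SE; edgeR adjusted p = 0.00565), and without long replicate 3 it was -5.89 (edgeR adjusted p = 4.84e-06).

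A gene without reads in the long pool was a copy of AT4G20130 in the class of proteins that interact with rubisco (BnaA03g14450D, A03, 6658037 to 6659546), for which the table gives no protein description. It had 0, 0 and 0 reads in the long libraries, against 52, 21 and 18 reads in the short libraries. No other of the 46 genes had at least 10 reads in every library of a pool and at most 3 in all of the other. With 3 counts in the whole long pool taken as its floor, it was at least 29.2-fold lower in the long pool (edgeR adjusted p = 0.00106). Short replicate 1 held most of its reads, and without it the bound was 18.2-fold, with the call kept (edgeR adjusted p = 0.00145). At this depth the data limit its level in the long pool and do not show that it is silent.

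A kinase filed under state transitions, the rebalancing of antenna between the photosystems, was lower in the long pool at 12.1, 12.0 and 13.3 CPM, against 38.0, 34.8 and 27.1 CPM in the short libraries (BnaA09g00050D, A09, 17488 to 19794). The pools did not overlap, and the log2 fold change was -1.42 ± 0.18 (SE; edgeR adjusted p = 0.000187). The table describes it as a probable serine/threonine-protein kinase, which is not the name of the kinase known for state transitions. A gene filed under the delta subunit of ATP synthase without a protein description (BnaC02g27850D) had 1.36, 1.42 and 1.88 CPM in the long libraries, against 4.87, 3.18 and 4.35 CPM in the short libraries. The fitted log2 fold change was -1.41 ± 0.28 (SE; edgeR adjusted p = 0.00748), but it was not called without long replicate 1 (-1.33, edgeR adjusted p = 0.0704) or long replicate 2 (-1.35, edgeR adjusted p = 0.0647).

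Enzymes filed under photorespiration, which recovers carbon lost when rubisco takes up oxygen, had fitted differences of opposite signs. The reductase HPR3, which converts glyoxylate and hydroxypyruvate (BnaA09g47060D), had 1.67, 1.88 and 1.70 CPM in the long libraries, against 3.85, 4.24 and 3.87 CPM in the short libraries. Its libraries were tight in both pools, and the log2 fold change was -1.18 ± 0.26 (SE; edgeR adjusted p = 0.0138). The call was lost without long replicate 1 (adjusted p = 0.0846 by edgeR), 2 (0.0627) or 3 (0.0548) and without short replicate 2 (0.0525). GLO3, a peroxisomal hydroxy-acid oxidase of the glycolate oxidase class (BnaA03g33220D), had 0.622, 2.02 and 1.66 CPM in the long libraries, against 0.196, 0.479 and 0.516 CPM in the short libraries. It was not called (log2 fold change 1.83 ± 0.48 (SE), edgeR adjusted p = 0.0541). A call was reached without long replicate 1 (2.19, edgeR adjusted p = 0.025) and under both other scalings. The copy of plastocyanin, the electron carrier from the cytochrome complex to photosystem I (BnaC07g15470D), had 2, 3 and 5 reads in the long libraries, against 13, 10 and 8 reads in the short libraries, and was too low to be tested.

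**Figure D2:**
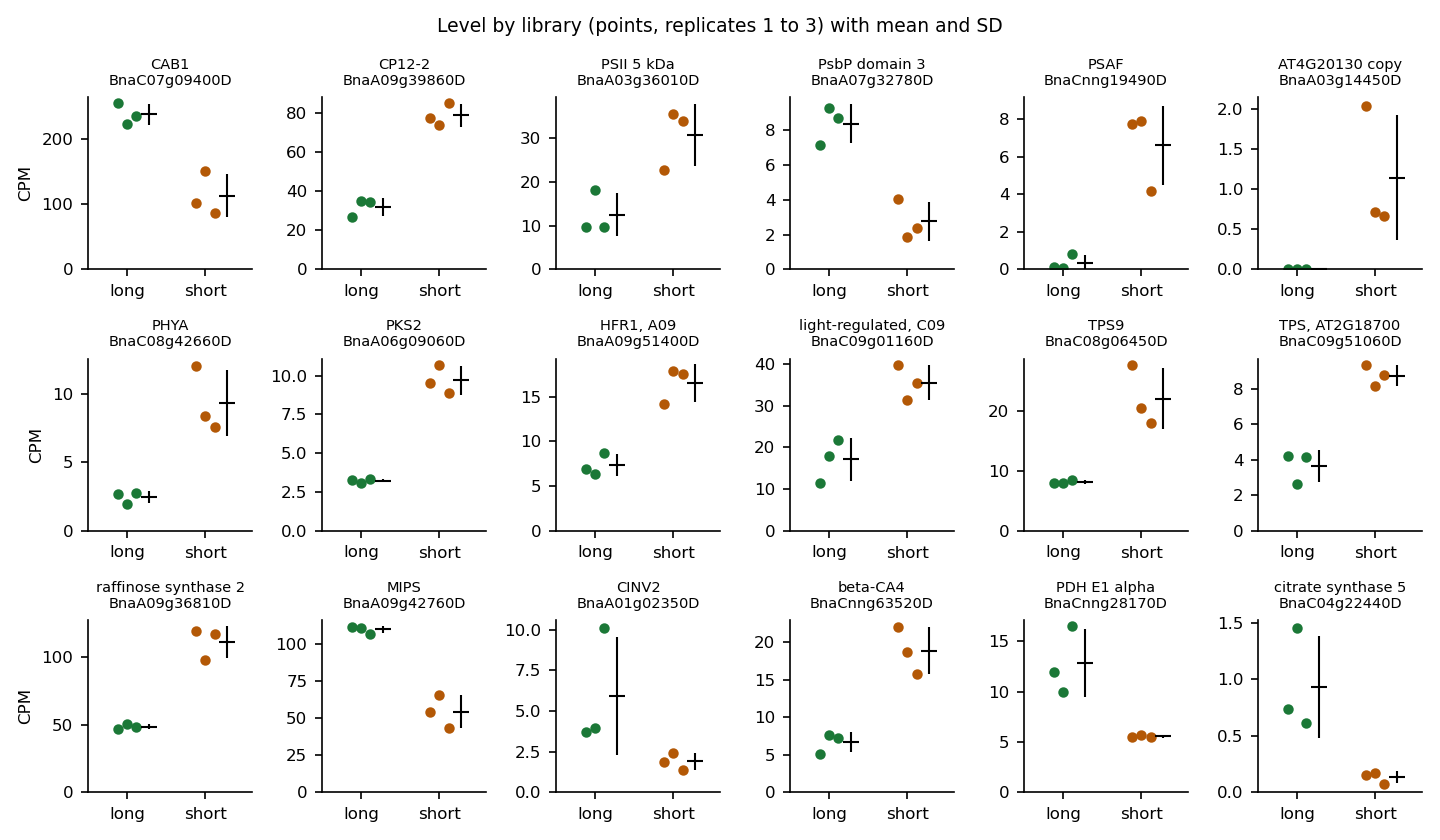
CPM of 18 genes in each of the 3 long (left, green) and 3 short libraries (right, brown), with replicates 1 to 3 from left to right in each pool, and black marks for the mean and SD; each panel has its own axis from 0. The pools do not overlap in any panel, and in the panel of CINV2 the third long library, at 10.1 CPM, stands apart from 3.69 and 3.97 CPM.

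Of the 9 light signalling genes, 8 had every long library below every short library, as had 62.2% of all listed genes. Their summed level was 44.1, 51.4 and 56.8 CPM in the long libraries, against 118, 113 and 105 CPM in the short libraries. Phytochrome A, the photoreceptor of far-red light (BnaC08g42660D, C08, 36746642 to 36751390), had the smallest p among them. It stood at 2.72, 1.98 and 2.75 CPM in the long libraries, against 12.0, 8.37 and 7.56 CPM in the short libraries. All 3 long libraries lay well below the lowest short library. The pools differed by -1.91 ± 0.25 on the log2 scale (SE; edgeR adjusted p = 0.000242), and PHYA was called in all 6 fits that left out a library.

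Phytochrome kinase substrate 2, a plasma membrane protein known from Arabidopsis for its part in phytochrome and phototropin signalling (BnaA06g09060D, A06, 4913093 to 4914400), was lower as well. Its 3 long libraries lay close together at 3.30, 3.11 and 3.32 CPM, against 9.50, 10.7 and 8.89 CPM in the short libraries. The log2 fold change was -1.58 ± 0.21 (SE; edgeR adjusted p = 0.000269). Like PHYA, it was called in all 6 fits that left out a library.

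Both listed copies of HFR1, a transcription factor that acts in far-red and shade responses, were lower. The copy on A09 (BnaA09g51400D, 33771182 to 33773126) had 6.96, 6.41 and 8.74 CPM in the long libraries, against 14.1, 17.9 and 17.6 CPM in the short libraries. The copy on a random scaffold of C08 (BnaC08g49690D) had 5.48, 9.15 and 6.07 CPM in the long libraries, against 14.7, 21.1 and 12.5 CPM in the short libraries. Neither copy overlapped between pools. Per length the A09 copy had 7.36 ± 1.22 FPKM in the long pool against 16.5 ± 2.08 FPKM in the short pool, and the C08 copy 6.51 ± 1.86 FPKM in the long pool against 15.2 ± 4.21 FPKM in the short pool. Their log2 fold changes were -1.17 ± 0.20 (SE; edgeR adjusted p = 0.00214) on A09 and -1.22 ± 0.24 (SE; edgeR adjusted p = 0.00759) on C08, the second without a call when long replicate 1 was left out (-1.07, edgeR adjusted p = 0.0981). Unique mapping was used for counting, so reads common to near-identical copies were left out of both.

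The gene described as light-regulated protein, at locus AT3G26740, was listed in a pair of copies too. On C09 (BnaC09g01160D, 691231 to 692002) it had 11.5, 18.0 and 21.8 CPM in the long libraries, against 39.8, 31.3 and 35.3 CPM in the short libraries. On C02 (BnaC02g36290D, 39371266 to 39372266) it had 5.21, 6.15 and 7.51 CPM in the long libraries, against 17.1, 14.4 and 14.3 CPM in the short libraries. The short libraries lay above all long libraries for both copies. Per length the C09 copy was the more abundant, with 27.4 ± 8.31 FPKM in the long pool against 56.9 ± 6.74 FPKM in the short pool, while the C02 copy had 7.62 ± 1.41 FPKM in the long pool against 18.5 ± 1.97 FPKM in the short pool. Log2 fold changes were -1.05 ± 0.21 (SE; edgeR adjusted p = 0.00788) for the C09 copy and -1.28 ± 0.20 (SE; edgeR adjusted p = 0.0011) for the C02 copy. The C09 copy lost its call without long replicate 1 (-0.83, edgeR adjusted p = 0.0606).

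The other light signalling genes were a pair of BTB/POZ proteins, a domain found in adaptors of ubiquitin ligases, and a clock gene. NPY3 (BnaAnng29310D) had 4.39, 2.71 and 3.15 CPM in the long libraries, against 8.91, 7.21 and 7.01 CPM in the short libraries. It was lower (log2 fold change -1.17 ± 0.24 (SE), edgeR adjusted p = 0.00907), and lost its call without long replicate 2 (-1.03, edgeR adjusted p = 0.071). The protein described as At5g17580 (BnaA10g17150D) was the only light signalling gene called higher, at 4.27, 3.50 and 2.93 CPM in the long libraries, against 1.49, 1.44 and 0.775 CPM in the short libraries. Its log2 fold change was 1.53 ± 0.31 (SE; edgeR adjusted p = 0.00862), and the call was lost without long replicate 1 (1.38, edgeR adjusted p = 0.082) or short replicate 3 (1.29, edgeR adjusted p = 0.0519). ELF4, a component of the evening complex of the circadian clock (BnaC04g56730D), had 5, 11 and 12 reads in the long libraries, against 20, 22 and 24 reads in the short libraries, and was not called (edgeR adjusted p = 0.458). Under both other scalings PHYA alone of the 7 lower genes kept its call.

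A list of light regulators that the class does not hold added 6 listed genes, 1 higher and 5 lower in the deposited table. Of these, 5 were tested and 1 was called in each direction (40%, against 66.6% of all tested genes). HY5, the transcription factor that promotes development in light (BnaCnng20200D), was higher at 11.0, 10.3 and 14.3 CPM in the long libraries, against 4.91, 4.10 and 4.17 CPM in the short libraries. Its direction was opposite to that of PHYA and HFR1, and its log2 fold change was 1.44 ± 0.21 (SE; edgeR adjusted p = 0.000577). GLK1, which activates genes of chloroplast development (BnaA07g00410D), had 1.20, 0.793 and 1.62 CPM in the long libraries, against 2.39, 3.86 and 3.69 CPM in the short libraries. The fitted log2 fold change was -1.47 ± 0.32 (SE; edgeR adjusted p = 0.0161), and it lost the call without long replicate 1 (adjusted p = 0.0995 by edgeR) or 2 (0.149) and without short replicate 2 (0.0555) or 3 (0.0786). GLK1 was not called under either other scaling (-0.71 with TMM factors), while HY5 was. PIF1, a repressor of light responses that phytochrome removes (BnaC07g00780D), was not called (-1.24 ± 0.34 (SE), edgeR adjusted p = 0.0743), nor was LAF1, a factor of phytochrome A signalling (BnaA01g14800D), except without long replicate 3 (-2.40, edgeR adjusted p = 0.0359). Both listed copies of early light-induced protein 1, a chloroplast protein made under light stress, were lower in the long pool, with 0.231 to 0.830 CPM summed in the long libraries, against 35.1 to 57.7 CPM in the short libraries. No listed gene belonged to the list of chlorophyll breakdown.

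Sucrose breakdown was described by 6 genes, of which 1 was called higher and 1 lower. That is 33.3%, against 66.6% of all tested genes. CINV2, a neutral invertase that splits sucrose into glucose and fructose inside the cell (BnaA01g02350D, A01, 1196586 to 1199005), had 3.69, 3.97 and 10.1 CPM in the long libraries, against 1.88, 2.43 and 1.40 CPM in the short libraries. Long replicate 3 lay far above the other two, and the pools did not overlap. With all libraries the log2 fold change was 1.63 ± 0.38 (SE; edgeR adjusted p = 0.0319). Without long replicate 3 it was 1.0 (edgeR adjusted p = 0.171), and the call was also lost without short replicate 1 (adjusted p = 0.304 by edgeR), 2 (0.0611) or 3 (0.195).

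Sucrose synthase 3, which splits sucrose reversibly into UDP-glucose and fructose (BnaA09g00710D), was close to the floor of detection. It held 4, 2 and 1 reads in the long libraries, against 19, 13 and 13 reads in the short libraries. The log2 fold change was -2.58 ± 0.53 (SE; edgeR adjusted p = 0.00983), and it was not called by the DESeq2 Wald test. Leaving out long replicate 2 (adjusted p = 0.102 by edgeR), long replicate 3 (0.0564) or short replicate 1 (0.0756) ended the call, and without long replicate 1 the value was -3.19 (edgeR adjusted p = 0.0276).

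The cell wall invertases, which split sucrose outside the cell, were listed in 3 copies that lay lower in all long libraries without reaching a call. Of all listed genes, 62.2% likewise had every long library below every short library. CWINV1 (BnaA01g37220D) had 0.505, 0.562 and 0.874 CPM in the long libraries, against 1.26, 2.56 and 1.51 CPM in the short libraries (log2 fold change -1.47 ± 0.39 (SE), edgeR adjusted p = 0.0543). The copies of locus AT3G13784 were alike in this, with -1.14 ± 0.31 (SE; edgeR adjusted p = 0.0636) on A05 and -1.33 ± 0.37 (SE; edgeR adjusted p = 0.074) on C05. Fructokinase-4, which phosphorylates the fructose that these enzymes release (BnaC04g23060D), had 5.40, 4.56 and 4.15 CPM in the long libraries, against 14.8, 8.65 and 6.16 CPM in the short libraries. Short replicate 1 was the highest, and the log2 fold change of -1.06 ± 0.28 (SE) was not called by edgeR (adjusted p = 0.0613) but was by the DESeq2 Wald test (adjusted p = 0.031). CWINV1 was called without short replicate 1 (-1.67, edgeR adjusted p = 0.0427) and fructokinase-4 without short replicate 3 (-1.31, edgeR adjusted p = 0.00998).

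Sugar transporters outside these classes were listed in 33 cases, 8 higher and 25 lower in the deposited table, with 5 called higher and 12 called lower of 27 tested. With the recovered totals these 63.0% lie near the 66.6% over the whole table. Under each of the other scalings 7 were called higher and 1 lower, which is 29.6% of the 27 tested. Of all 2574 tested genes, 1246 were called with TMM factors and 1193 with DESeq2 size factors. The list was made by description and includes carriers of nucleotide sugars. GPT2, which imports glucose-6-phosphate into plastids (BnaA01g36280D), was higher at 68.6, 66.3 and 77.3 CPM in the long libraries, against 17.0, 21.9 and 22.1 CPM in the short libraries. This was the smallest p of the list (log2 fold change 1.80 ± 0.17 (SE), edgeR adjusted p = 8.02e-06). Among the lower ones, the log2 fold change was -1.16 ± 0.16 (SE; edgeR adjusted p = 0.000426) for polyol transporter 5 (BnaC01g33830D) and -1.64 ± 0.23 (SE; edgeR adjusted p = 0.000408) for the hexose carrier sugar transport protein 3 (BnaC07g31250D), and neither was called under the other scalings (-0.38 and -0.86 with TMM factors). Of the sugar starvation and sensing list 2 genes were in the table, and the 1 tested was not called.

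The minor carbohydrate class had 13 genes, 3 higher and 10 lower in the deposited table, with 2 called higher and 5 called lower of 12 tested. These 58.3% compare with 66.6% of all tested genes, of which 23.1% were called higher and 43.5% lower. Inositol-3-phosphate synthase, which turns glucose-6-phosphate into the precursor of inositol (BnaA09g42760D, A09, 29748886 to 29751271), was the abundant gene that was higher. It had 112, 111 and 107 CPM in the long libraries, against 54.2, 65.8 and 43.8 CPM in the short libraries. The long libraries were nearly equal, and all lay above the short ones. The pools differed by 1.01 ± 0.16 on the log2 scale (SE; edgeR adjusted p = 0.00131).

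The gene described as galactinol-sucrose galactosyltransferase 2, a name for enzymes that make raffinose from sucrose and galactinol (BnaA09g36810D, A09, 26576413 to 26581132), went the other way. The long libraries held 47.1, 50.5 and 48.7 CPM, against 119, 97.9 and 118 CPM in the short libraries. The pools were far apart relative to their spread, and the log2 fold change was -1.19 ± 0.15 (SE; edgeR adjusted p = 0.000153).

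Both listed trehalose-phosphate synthases were lower. TPS9, a member of the trehalose-phosphate synthase family (BnaC08g06450D, C08, 8967727 to 8971384), had 7.89, 8.0 and 8.43 CPM in the long libraries, against 27.6, 20.3 and 17.9 CPM in the short libraries. A second family member, of locus AT2G18700 (BnaC09g51060D), had 4.20, 2.64 and 4.15 CPM in the long libraries, against 9.34, 8.13 and 8.78 CPM in the short libraries. Both were without overlap, with log2 fold changes of -1.44 ± 0.20 (SE; edgeR adjusted p = 0.000364) for TPS9 and -1.26 ± 0.23 (SE; edgeR adjusted p = 0.00399) for the AT2G18700 copy. Trehalose-phosphate phosphatase G, which removes the phosphate (BnaA03g45450D), held 9, 8 and 4 reads in the long libraries, against 13, 36 and 12 reads in the short libraries, and was not called (edgeR adjusted p = 0.299).

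The class also holds genes whose descriptions name other functions. COG8, a subunit of a complex that tethers vesicles at the Golgi (BnaA03g03730D), had 5.91, 4.43 and 5.07 CPM in the long libraries, against 2.51, 2.39 and 2.47 CPM in the short libraries. It was called higher (log2 fold change 1.06 ± 0.24 (SE), edgeR adjusted p = 0.0218), and leaving out a single library ended the call in 5 of 6 cases: long replicate 1 (adjusted p = 0.152 by edgeR) or 3 (0.0611), or short replicate 1 (0.0523), 2 (0.0812) or 3 (0.0667). Aldo-keto reductase family 4 member C8 (BnaC04g53550D) had 3.19, 4.0 and 4.37 CPM in the long libraries, against 6.36, 7.59 and 14.8 CPM in the short libraries. Short replicate 3 was the highest, and the fitted difference of -1.31 ± 0.29 on the log2 scale (SE; edgeR adjusted p = 0.0199) was -0.86 without it (edgeR adjusted p = 0.138). The call was also lost without long replicate 1 (edgeR adjusted p = 0.169) or long replicate 2 (edgeR adjusted p = 0.0865).

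Locus AT3G28340, described as galacturonosyltransferase-like 10 but filed under galactinol synthases, was listed in 3 copies at low levels. The copy on A06 (BnaA06g31630D) had 0, 6 and 3 reads in the long libraries, against 12, 36 and 21 reads in the short libraries, and was called lower (log2 fold change -2.83 ± 0.63 (SE), edgeR adjusted p = 0.018). It was not called without long replicate 1 (edgeR adjusted p = 0.107), long replicate 3 (edgeR adjusted p = 0.0591) or short replicate 2 (edgeR adjusted p = 0.0778), and stood at -3.65 without long replicate 2 (edgeR adjusted p = 0.0352). The C09 copy (BnaC09g01660D) was not called (-1.34 ± 0.37 (SE), edgeR adjusted p = 0.0784), except without short replicate 1 (-1.63, edgeR adjusted p = 0.0162), and the C07 copy (BnaC07g25020D) was too low to be tested. The C07 copy, with 6, 3 and 1 reads in the long libraries and 5, 26 and 9 reads in the short libraries, was the 1 gene of the 46 whose pools overlapped. Uncalled in this class were also an inositol polyphosphate kinase, a hydrate dehydratase and an aldose reductase, with edgeR adjusted p between 0.101 and 0.174. Of these the aldose reductase (BnaA03g00210D) was called higher under both other scalings (edgeR adjusted p = 0.00355 with TMM factors).

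Glycolysis was represented by a gene filed as a plastid phosphoglucomutase and described as a phosphomannomutase, enzymes that move a phosphate within a sugar (BnaC06g31970D, C06, 32328252 to 32331445). It had 3.89, 4.10 and 2.62 CPM in the long libraries, against 8.67, 7.49 and 6.86 CPM in the short libraries, without overlap. The log2 fold change was -1.11 ± 0.24 (SE; edgeR adjusted p = 0.0118). Leaving out long replicate 1 (edgeR adjusted p = 0.0575), long replicate 3 (edgeR adjusted p = 0.0684) or short replicate 1 (edgeR adjusted p = 0.0563) ended the call.

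Genes filed under the citric acid cycle and its entry, 1 of them described as cytosolic, were called higher in 2 of 4 cases and lower in 0. Of all tested genes 23.1% were called higher and 43.5% lower. The alpha subunit of pyruvate dehydrogenase E1, which feeds acetyl-CoA into the citric acid cycle (BnaCnng28170D), had 12.0, 9.98 and 16.5 CPM in the long libraries, against 5.45, 5.74 and 5.46 CPM in the short libraries. The short libraries were nearly equal and all lay below the long ones. Its log2 fold change was 1.20 ± 0.22 (SE; edgeR adjusted p = 0.00346), and it was called whichever library was left out.

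Citrate synthase, which condenses acetyl-CoA with oxaloacetate, was listed with a gene in each direction. Citrate synthase 5 (BnaC04g22440D, C04, 23460574 to 23464175) held 19, 44 and 14 reads in the long libraries, against 4, 5 and 2 reads in the short libraries. At 2.78 ± 0.54 (SE; edgeR adjusted p = 0.00582) its log2 fold change was the highest of the 44 tested genes, at a low level of 0.57 ± 0.28 FPKM in the long pool against 0.0833 ± 0.0289 FPKM in the short pool. Citrate synthase 4 (BnaAnng15280D) stood higher per length, at 4.36 ± 0.621 FPKM in the long pool against 9.71 ± 4.04 FPKM in the short pool, and was not called (log2 fold change -1.15 ± 0.31 (SE), edgeR adjusted p = 0.0732) except without short replicate 3 (-1.34, edgeR adjusted p = 0.0441). Cytosolic isocitrate dehydrogenase, which makes 2-oxoglutarate (BnaAnng25840D), had 30, 27 and 24 reads in the long libraries, against 8, 15 and 8 reads in the short libraries, without overlap but without a call (edgeR adjusted p = 0.0968). It was called under both other scalings (edgeR adjusted p = 0.00318 with TMM factors and 0.0012 with DESeq2 size factors).

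Carbonic anhydrases, which interconvert CO2 and bicarbonate, were called in both directions. Beta carbonic anhydrase 4 (BnaCnng63520D) was lower at 5.17, 7.67 and 7.29 CPM in the long libraries, against 22.1, 18.7 and 15.8 CPM in the short libraries. The fitted log2 fold change was -1.49 ± 0.21 (SE; edgeR adjusted p = 0.00043). Alpha carbonic anhydrase 5 (BnaA06g04530D) was higher at 1.87, 2.64 and 2.49 CPM in the long libraries, against 0.314, 1.09 and 0.553 CPM in the short libraries. Short replicate 2 was nearest to the long pool. The log2 fold change of the alpha gene was 1.81 ± 0.40 (SE; edgeR adjusted p = 0.0154), 2.41 without short replicate 2 (edgeR adjusted p = 0.00179), and not called without long replicate 2 (adjusted p = 0.0961 by edgeR) or 3 (0.051) or without short replicate 1 (0.0682) or 3 (0.0833).

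**Figure D3:**
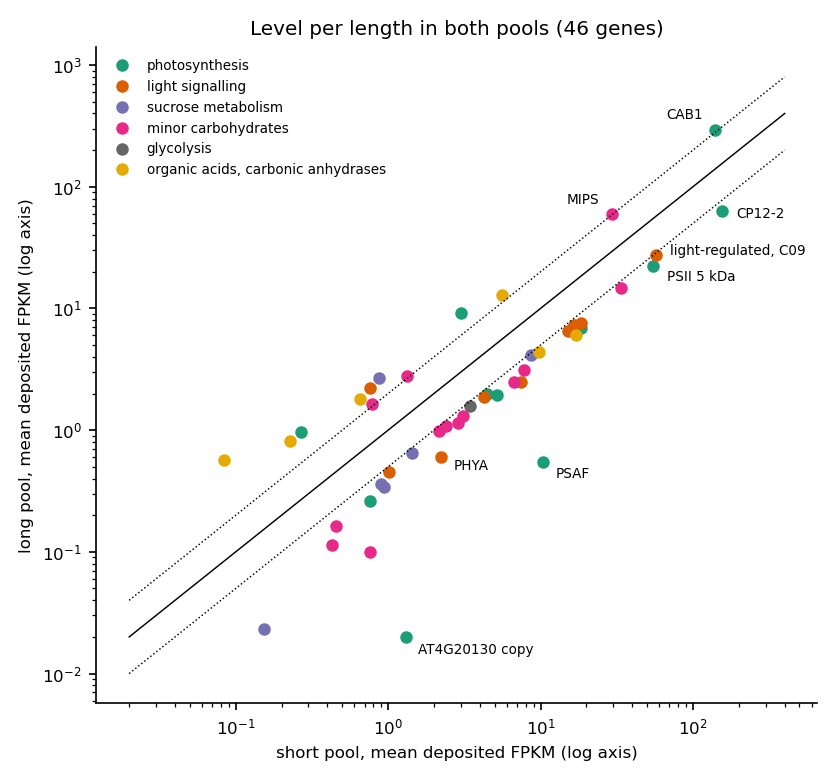
Mean deposited FPKM of the 46 genes in the long pool (vertical, log axis) against the short pool (horizontal, log axis), coloured by class; the solid line marks equal levels, the dotted lines a doubling or halving, and 0 is drawn at 0.02 FPKM. CAB1 and the inositol-3-phosphate synthase lie above the line at high level, and CP12-2, the photosystem II 5 kDa protein and the C09 light-regulated copy below it.

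The members span a wide range of levels. Per length, the 5 highest were CAB1, CP12-2, inositol-3-phosphate synthase with 59.2 ± 1.36 FPKM in the long pool against 29.3 ± 5.92 FPKM in the short pool, the photosystem II 5 kDa protein with 22.2 ± 8.64 FPKM in the long pool against 54.4 ± 12.5 FPKM in the short pool, and the C09 light-regulated copy. The median gene of the 46 had 2.86 CPM in the long pool against 3.83 CPM in the short pool. Over all listed genes the medians were 0.723 CPM in the long pool against 1.09 CPM in the short pool. Summed over the 46 genes, the long libraries held 582, 579 and 595 CPM, against 675, 695 and 613 CPM in the short libraries. CAB1 made up a large share of this, and without it the sums were 328, 356 and 361 CPM in the long libraries, against 573, 545 and 527 CPM in the short libraries. The spread between libraries was alike in both pools: over the 34 genes with at least 10 reads in every library, the median coefficient of variation was 18.2% in the long pool against 19.8% in the short pool. CINV2 varied most in the long pool (61.4%) and the aldo-keto reductase most in the short pool (47.4%).

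Rapeseed carries an A and a C subgenome, so most loci have several copies. Of the 46 genes, 25 lay on the A subgenome, all of them tested, with 6 called higher and 11 lower. The C subgenome held 21, of which 19 were tested, with 3 called higher and 11 lower. The called shares were 68% on A and 73.7% on C, against 66.6% of all tested genes. A difference between the subgenomes was not tested. The 46 genes belong to 41 Arabidopsis loci. Of these, 4 loci hold 9 of the genes: those of HFR1, the light-regulated protein, the cell wall invertase AT3G13784 and galacturonosyltransferase-like 10. No such locus had copies in opposite directions. Copies that the authors did not call are absent from the table, so this count says nothing of the copies outside it. Scaffolds without a chromosome position carried 12 of the 46 genes.

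Other plastid genes and markers of other tissues were read beside these results. Outside the 46 genes, 89 listed genes had a plastid in their description, 40 higher and 49 lower, with 26 called higher and 31 called lower of 76 tested (75.0%, against 66.6% of all tested genes). Under the other scalings 36 plastid genes were called higher, and 7 (TMM factors) or 5 (DESeq2 size factors) lower. That is 56.6% with TMM factors and 53.9% with DESeq2 size factors. Of all 2574 tested genes, 916 were then called higher and 330 lower with TMM factors, and 915 higher and 278 lower with DESeq2 size factors. The single listed seed storage gene (BnaA09g50780D) was lower in the long pool, with 0 to 0.0661 CPM in the long libraries, against 1.85 to 4.12 CPM in the short libraries. Of 7 pollen and stamen genes, 3 stood higher and 4 lower, with 1 called higher and 2 called lower of 4 tested (75%, against 66.6%). Their summed level was 12.2 to 14.9 CPM in the long libraries, against 20.8 to 26.0 CPM in the short libraries. None of them was at 0 in all libraries of a pool. The part of seed or flower tissue in the results above was not tested. No petal gene and no regulator of the fruit wall patterning list was among the listed genes, so the labelled tissue could not be checked against its own markers.

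**Figure D4:**
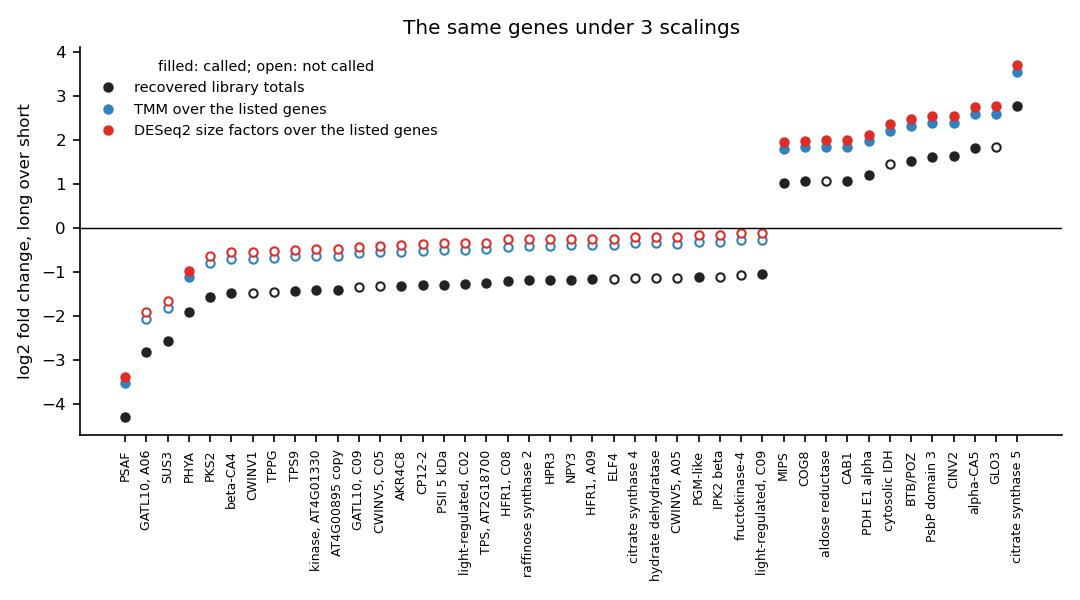
Log2 fold change (long over short, vertical axis) of 43 tested genes under the recovered library totals (black), TMM factors (blue) and DESeq2 size factors (red), ordered by the black values; filled points are called, and the AT4G20130 copy is left out. Both other scalings lift each gene by a similar step, no gene crosses 0, and among the lower genes shown PSAF and PHYA stay called.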

How the data were processed

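The authors mapped filtered reads to the Darmor reference and kept uniquely mapped reads, per the series design text. Aligner and release of the genome: not given in the sources used here. The authors deposited 1 table of called genes, with whole-number counts and FPKM per library and, from their own comparison, a log2 fold change, a p-value and an FDR for each gene, per the file headers. The submitters' processing notes name edgeR and DESeq2. Gene coordinates are those of the table, and 59362 blank rows were left out. Names follow the descriptions and loci of the table, in part as short symbols, since 0 gene IDs matched the RefSeq annotation. The name CAB1 follows the description as chlorophyll a-b binding protein 1, and the locus given for that gene is AT1G29920.

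Library totals were recovered from counts, FPKM and gene span (minimum 200 counts and 5 FPKM) and served as library sizes. Counts were tested with edgeR 4.0.16 (quasi-likelihood, robust, filterByExpr) in R 4.3.3, with Benjamini-Hochberg adjustment over 65264 genes, the number implied by the deposited FDR and p-values. Since the tested genes had been selected for differing, their estimated spread may be too narrow and p-values too small. SE is the log2 fold change over the root of F. The fit was tested on simulated data. Floors cover counting error only. Alternatives included DESeq2 1.42.0. Figures were made with Python 3.11.15 and matplotlib 3.10.9.

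The members and lists were chosen with earlier results of these data known. By rule the text names, per class and direction, up to 3 called genes with the smallest p and no overlap, genes detected in a single pool and the 5 with the highest FPKM, 23 in all; the other members were described after their values were seen.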

Additional observations from a re-analysis of the deposited data

How the results depend on the processing

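Among all tested genes 1713 were called (594 higher, 1119 lower in the long pool), 1246 with TMM factors over the listed genes (916 higher, 330 lower), 1193 with DESeq2 size factors (915 higher, 278 lower), 1641 with the DESeq2 Wald test, 1829 without a filter and 1112 at an adjusted p of at most 0.01. Leaving out a library gave 1135 to 1424 genes, fewest without long replicate 2. Members called lower numbered 3 with TMM factors and 3 with DESeq2 size factors, and 14 (without long replicate 1) to 22 when a library was left out. Members called higher numbered 5 (without short replicate 3) to 8 when a library was left out. The median log2 fold change of the members was -0.40 with TMM factors, -0.25 with DESeq2 size factors, and -1.24 to -1.17 when a library was left out. Of the 23 members named by rule, 12 lost their call with each scaling, 1 with the DESeq2 Wald test, 0 without a filter and 2 to 5 when a library was left out; none changed sign under these alternatives.

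Replicate numbers did not pair the libraries: same-numbered libraries correlated in their deviations at 0.041, 0.010 and 0.0059 over 2574 genes, and not every library correlated best with its own number. With the replicate block, 1228 of the 2574 genes were called, among them 28 of the 44 tested members, 8 higher and 20 lower. The median member log2 fold change was -1.19, and 3 of the 23 named members lost their call. GLO3 gained one with the block (edgeR adjusted p = 0.0448) and GLK1 lost its own. Plastocyanin and the C07 copy of galacturonosyltransferase-like 10 had too few reads to be tested at this depth.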
